A study of Mus musculus with 20 samples.

Results

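Cytokines of the IL-6, IL-10 and IL-22 groups act on the colon through receptor chains that activate the transcription factor STAT3, and the suppressors of cytokine signaling (SOCS proteins) limit that signal. The expression of 10 genes of this route was examined in the distal colon (DC): the SOCS family genes Socs1, Socs2, Socs3 and Cish, the transcription factor genes Stat3 and Bcl3, and the receptor chain genes Il6st, Osmr, Il22ra1 and Il10rb. They were chosen by name, with earlier results of these data known. All 10 were among the 26619 genes of the count table and among the 17893 that passed the filter on low counts.

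RNA was sequenced from the DC of 20 male C57BL/6 mice, with 5 mice per diet. All mice had eaten the Total Western Diet (TWD), a diet built to resemble the nutrient intake of Americans, for 6 weeks, and then ate the TWD with 0, 2, 5 or 10% resistant potato starch (RPS) for 3 further weeks. RPS is a potato starch of which a part escapes digestion and is fermented in the large bowel, and the labels name it raw potato starch. The percentages give the RPS added to the diet, not its resistant part. The TWD without RPS was the control, and each mouse gave 1 library.

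The SOCS proteins form a feedback loop. A cytokine bound to its receptor activates Janus kinases, these phosphorylate STAT proteins, and the STAT proteins switch on SOCS genes whose products then block the kinases and receptors. In the colon, IL-22 made by immune cells reaches the epithelium through Il22ra1 and Il10rb and drives STAT3, which supports repair and the output of antimicrobial proteins. IL-6 and oncostatin M signal through Il6st, also called gp130, and Socs3 is the main brake on that chain. Cish and Socs2 are known above all as targets of STAT5 in the response to growth hormone and related cytokines.

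Library totals ran from 18.4 to 34.97 megacounts, with 31.3 to 34.97 megacounts in the 0% RPS mice and 18.4 to 26.6 megacounts in the 10% RPS mice, so depth and diet cannot be told apart in that comparison. The epithelial marker list (Epcam, Cdh1, Krt8, Krt20, Vil1, Car1, Cdx2) summed to between 8956 and 14026 CPM (counts per megacount of scaled library size) in the 20 libraries, and the tissue was bulk colon wall, so fewer cells of a type and less RNA per cell cannot be told apart. Pancreatic acinar markers summed to 5981 CPM in mouse RS10_721 (5% RPS) and to at most 865 CPM in any other mouse. For 3 mice a second label gives another diet: RS10_717 (5% by its description, 2% by its treatment label), RS10_725 (10 and 5%) and RS10_748 (2 and 10%). The description was followed, and values without these mice stand beside the results they change.

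Expression levels of the 10 genes were compared per length, as CPM per kilobase of the longest annotated transcript, in the 0% RPS mice. Stat3 stood highest, between 22.2 and 27.0 CPM per kilobase, above the range of every other member. Il10rb (14.9 to 17.8), Il6st (13.8 to 17.3), Bcl3 (9.86 to 14.9) and Il22ra1 (6.91 to 14.2) followed, and each of these ranges overlapped the next. Socs2 lay between 4.63 and 8.74 CPM per kilobase and overlapped both Il22ra1 above it and Cish below it (3.20 to 5.52). Osmr (2.01 to 3.24) and Socs3 (2.06 to 3.20) lay in nearly the same range in the control mice, which touched that of Cish at its lower end. Socs1 was lowest, between 0.237 and 0.428 CPM per kilobase, below every other member without overlap. With the length of the canonical transcript in place of the longest, the mean level over the 20 mice went from 5.73 to 13.2 CPM per kilobase for Socs2 and from 16.2 to 25.2 for Bcl3, so their places in this order depend on the transcript used.

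The members also differed in their spread across the 20 mice. Socs3 ran from 5.58 to 79.5 CPM, a 14.2-fold range with a coefficient of variation of 101%. Bcl3 was next, with a 3.39-fold range and a coefficient of variation of 38.8%. Il10rb was the steadiest of the 10 members, between 55.5 and 68.6 CPM, a 1.24-fold range with a coefficient of variation of 5.64%. The plot of the members by diet shows these spreads on their own axes.

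**Figure D1:**
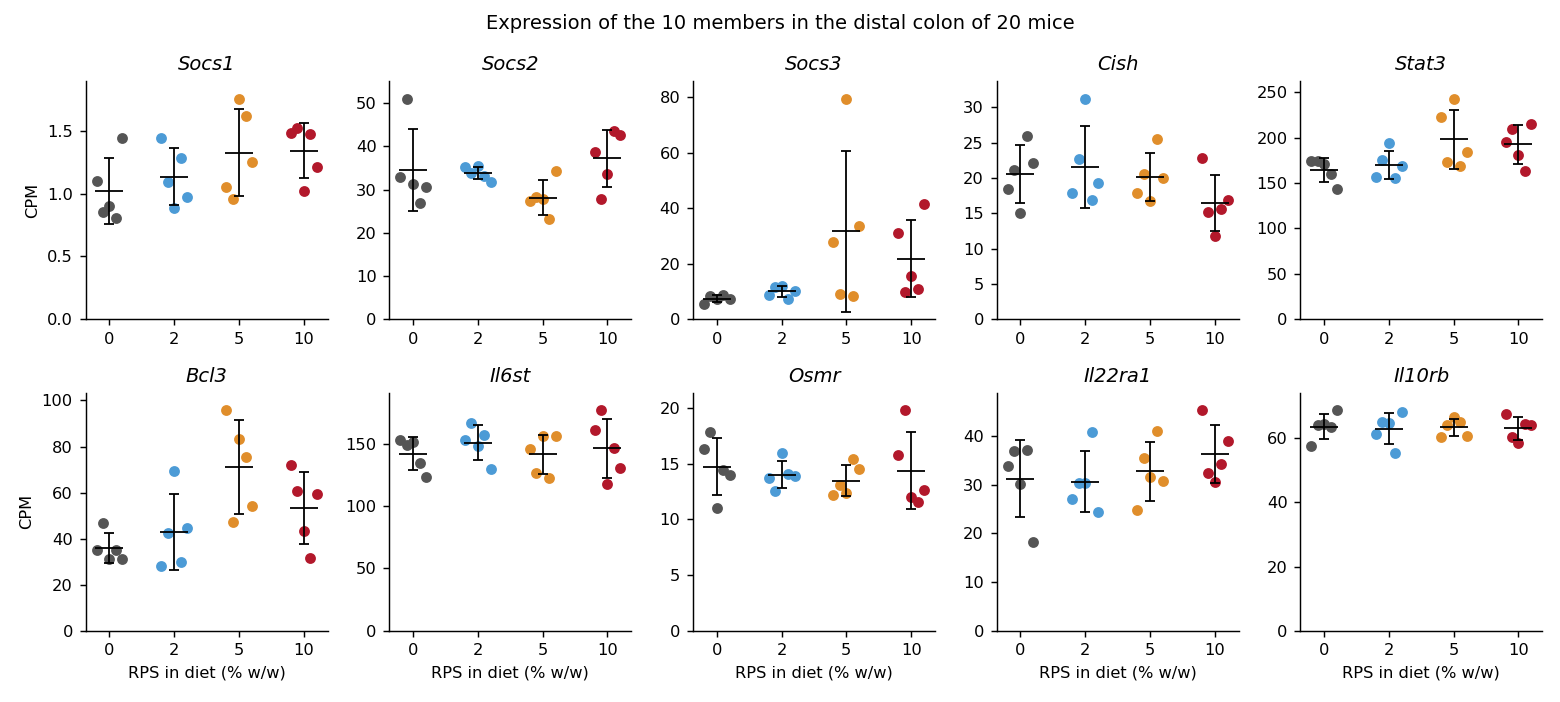
Expression of the 10 members in CPM (vertical axis, from 0) against the percentage of RPS in the diet (horizontal axis). Each point is 1 mouse, the horizontal bar is the mean of 5 mice and the error bar is the SD. Socs3 stays between 5.58 and 8.66 CPM in the 5 mice on 0% RPS and reaches 79.5 CPM on 5% RPS and 41.7 CPM on 10% RPS, while Il10rb lies between 55.5 and 68.6 CPM in all mice.

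Socs3 (ENSMUSG00000053113, chromosome 11, 117856905 to 117860898 on the minus strand of GRCm39) encodes the SOCS protein that binds gp130 and Janus kinases. On 0% RPS its levels were 5.58, 8.16, 7.27, 8.66 and 7.29 CPM, a mean of 7.39 ± 1.17 CPM (SD, n = 5). On 2% RPS they were 8.73, 11.7, 12.02, 7.33 and 10.3 CPM, and 4 of the 5 mice lay above the highest control mouse. The 2% RPS mice thus stood close to the controls, with an overlap through RS10_716.

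On 5% RPS the levels of Socs3 were 27.7 CPM in RS10_717, 8.91 in RS10_718, 79.5 in RS10_719, 8.48 in RS10_721 and 33.7 in RS10_724. On 10% RPS they were 31.0 CPM in RS10_725, 9.90 in RS10_727, 15.7 in RS10_729, 10.8 in RS10_731 and 41.7 in RS10_784. Within the 5% RPS group 3 mice were far above the controls and 2 were near the highest control (8.66 CPM), 1 of them below it, so the groups overlapped. All 5 mice on 10% RPS lay above all 5 controls, as was the case for 1.13% of all tested genes in that comparison.

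The estimated difference for Socs3 was 2.96-fold at 10% RPS (log2 fold change 1.56 ± 0.54 (SE), 95% interval 0.43 to 2.70) and 4.28-fold at 5% RPS (2.10 ± 0.54, 0.95 to 3.24). In edgeR's quasi-likelihood test neither was called, with Benjamini-Hochberg adjusted p-values over all tested genes of 0.183 at 10% RPS and 0.325 at 5% RPS, beside unadjusted p-values of 0.0099 and 0.0013. To be called, a gene needed an adjusted p no higher than 0.05 together with a change of 1.5-fold or more, up or down. DESeq2 called Socs3 at 5% RPS (adjusted p = 0.034) and not at 10% RPS (adjusted p = 0.071). At 2% RPS the log2 difference was 0.44, with a 95% interval from -0.69 to 1.57.

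Mouse RS10_719 set much of the size of the difference at 5% RPS. Without it the edgeR log2 fold change of Socs3 was 1.41 in place of 2.10, and the DESeq2 adjusted p was 0.281. The DESeq2 call at 5% RPS was also lost without RS10_701, RS10_703, RS10_707, RS10_708, RS10_709, RS10_716, RS10_748 or RS10_717, so in 9 of 20 fits that each left out 1 mouse. With the treatment labels its DESeq2 adjusted p was 0.181, and without the 3 mice of disagreeing labels it was 0.141. At 10% RPS, by contrast, DESeq2 called Socs3 in 4 of the 20 fits, those without RS10_718, RS10_719, RS10_721 or RS10_727.

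The DNA before 1 RefSeq start of Socs3 was looked at for the motif that STAT dimers bind, TTCNNNGAA, which reads the same on both strands. Windows from 250 bases before to 50 bases after the start were taken from RefSeq (GRCm38.p6) and matched 8 of the 10 members, all but Socs2 and Il10rb. Socs3 and Cish held the motif and the other 6 did not, and of all 32851 windows of this length 8.30% held it. The stretches below are shown because they hold the matches, printed 5′ to 3′ on the strand of the gene with the matches in capitals. That of Socs3 is chr11:117969367-117969616 (minus strand), the 250 bases before the RefSeq start used. That of Cish is chr9:107296559-107296678 (plus strand), from 100 bases before the start to the 20th base after it.
Socs3: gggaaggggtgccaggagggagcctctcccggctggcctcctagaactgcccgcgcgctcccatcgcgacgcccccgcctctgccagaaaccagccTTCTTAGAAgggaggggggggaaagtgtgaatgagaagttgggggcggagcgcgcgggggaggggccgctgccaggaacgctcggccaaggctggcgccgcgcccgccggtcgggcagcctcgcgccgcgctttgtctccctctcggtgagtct
Cish: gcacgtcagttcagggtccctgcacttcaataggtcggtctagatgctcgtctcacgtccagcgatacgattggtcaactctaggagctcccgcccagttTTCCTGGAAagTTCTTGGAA
In Socs3 the match TTCTTAGAA lay at positions -154 to -146, where -1 is the last base before the start. In Cish the matches TTCCTGGAA and TTCTTGGAA lay at positions 1 to 9 and 12 to 20, where 1 is the first base from the RefSeq start, and did not overlap. Only 1 RefSeq start per gene was used, and other annotated starts were not searched. The windows are on GRCm38.p6, while the gene positions given here are on GRCm39. At Socs3 the start used would lie inside the annotated gene if the builds are shifted there as at Stat3, on the same chromosome. The stretch shown may therefore not be the DNA before the first annotated start of Socs3. Of all windows, 0.457% held 2 or more matches. A match describes the letters only, and no binding was measured.

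Cish (ENSMUSG00000032578, chromosome 9, 107173225 to 107179983 on the plus strand) encodes the SOCS family member that damps STAT5 signals. Its levels on 0% RPS were 18.5, 21.1, 15.0, 25.9 and 22.2 CPM, and on 10% RPS they were 22.9, 15.2, 11.8, 15.6 and 16.8 CPM. On 2% RPS they were 17.9, 22.7, 31.2, 17.0 and 19.3 CPM, and on 5% RPS 17.9, 20.5, 16.8, 25.5 and 20.05 CPM. All 4 diets overlapped, and 1 mouse on 10% RPS (RS10_729) lay below the lowest control. The log2 difference at 10% RPS was -0.32 ± 0.18 (SE), with a 95% interval from -0.70 to 0.06 and an edgeR adjusted p of 0.417. At 5% RPS the interval ran from -0.40 to 0.35. The 2 SOCS genes with the motif near the RefSeq start used therefore had estimates of opposite sign at 10% RPS, and neither passed the test.

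Socs2 (ENSMUSG00000020027, chromosome 10, 95219523 to 95253929 on the minus strand) is the member known for restraining growth hormone signals. On 0% RPS its levels were 33.0, 51.1, 31.2, 27.0 and 30.6 CPM, with RS10_703 apart from the other 4. They were 27.3, 28.2, 27.8, 23.3 and 34.3 CPM on 5% RPS and 38.8, 27.9, 33.5, 43.5 and 42.6 CPM on 10% RPS. The 2% RPS mice were close together, between 31.9 and 35.4 CPM.

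For Socs2 the difference between 10 and 5% RPS was 0.41 ± 0.14 (SE) on the log2 scale, with an edgeR adjusted p of 0.841. No other member had an unadjusted p under 0.05 in that comparison. All groups overlapped, and 3 of the 5 mice on 10% RPS lay above every mouse on 5% RPS. Against 0% RPS the log2 difference was 0.11 at 10% RPS (95% interval -0.19 to 0.41) and -0.30 at 5% RPS (-0.60 to 0.0012). Socs2 and Cish, both known as STAT5 targets, showed no common direction over the 20 mice (Pearson's r = -0.11, Spearman's rho = -0.047).

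Socs1 (ENSMUSG00000038037, chromosome 16, 10600104 to 10603875 on the minus strand), the member that restrains interferon signals, was near the lower end of what these libraries could measure, with 24 to 52 counts per mouse. Its levels were 0.803 to 1.45 CPM on 0% RPS, 0.885 to 1.45 CPM on 2% RPS, 0.961 to 1.76 CPM on 5% RPS and 1.02 to 1.52 CPM on 10% RPS. The ranges overlapped in every comparison. The log2 difference was 0.39 at 10% RPS (95% interval -0.06 to 0.85) and 0.38 at 5% RPS (-0.07 to 0.83), and edgeR called neither (adjusted p = 0.405 and 0.617).

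Stat3 (ENSMUSG00000004040, chromosome 11, 100775924 to 100830450 on the minus strand) encodes the transcription factor at the center of this route. On 0% RPS its levels were 175, 174, 171, 161 and 144 CPM, and on 2% RPS 157, 175, 194, 155 and 169 CPM. On 5% RPS they were 222 CPM in RS10_717, 173 in RS10_718, 243 in RS10_719, 168 in RS10_721 and 184 in RS10_724, and on 10% RPS 196, 209.7, 181, 163 and 215 CPM. The groups overlapped, with 3 of 5 mice on 5% RPS and 4 of 5 on 10% RPS above the highest control. The log2 difference was 0.27 ± 0.10 (SE) at 5% RPS and 0.23 ± 0.10 at 10% RPS, or 1.203-fold and 1.17-fold. The edgeR adjusted p-values were 0.428 and 0.292, and those of DESeq2 were 0.293 and 0.231.

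Bcl3 (ENSMUSG00000053175, chromosome 7, 19541553 to 19557570 on the minus strand) encodes a nuclear IkappaB protein that works with p50 and p52 NF-kappaB dimers, and its transcription is known to respond to STAT3. Its levels on 0% RPS were 34.9, 47.0, 31.0, 35.3 and 31.3 CPM, a mean of 35.9 ± 6.51 CPM (SD, n = 5). On 5% RPS they were 95.7, 47.2, 83.2, 75.4 and 54.0 CPM, a mean of 71.1 ± 20.2 CPM. All 5 of these mice lay above all 5 controls, as did those of 0.464% of all tested genes at 5% RPS, although the lowest of them exceeded the highest control only by the step from 47.0 to 47.2 CPM.

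On 2% RPS the levels of Bcl3 were 28.3, 42.7, 69.3, 29.8 and 44.5 CPM, with 1 mouse above the controls (RS10_715) and 2 below. On 10% RPS they were 71.8, 60.7, 43.3, 31.8 and 59.3 CPM, with 3 mice above the controls. The log2 difference was 0.99 ± 0.26 (SE) at 5% RPS, or 1.98-fold (95% interval 0.44 to 1.53 on the log2 scale). It was 0.57 ± 0.26 at 10% RPS (0.03 to 1.12).

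By edgeR the adjusted p-values of Bcl3 were 0.325 at 5% RPS and 0.310 at 10% RPS. By DESeq2 they were 0.024 at 5% RPS, where Bcl3 was called, and 0.172 at 10% RPS. That call was lost in 6 of the 20 fits that each left out 1 mouse, those without RS10_701, RS10_707, RS10_708, RS10_717, RS10_719 or RS10_721. Its DESeq2 adjusted p was 0.374 with the treatment labels and 0.198 without the 3 mice of disagreeing labels. Markers of another tissue moved with 1 of the high values, since RS10_721, with 75.4 CPM of Bcl3, was the mouse with the high pancreatic markers. Their part in its level was not tested.

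As a group the 4 receptor chains had log2 differences from -0.04 to 0.22 at 10% RPS and from -0.13 to 0.07 at 5% RPS. Across the 20 mice Il22ra1 and Osmr varied more than Stat3, with coefficients of variation of 19.7, 15.6 and 13.8%. Il6st (ENSMUSG00000021756), the shared gp130 chain, lay between 117 and 177 CPM in the 20 mice. Its log2 difference was 0.04 at 10% RPS (95% interval -0.17 to 0.25) and -0.0068 at 5% RPS (-0.22 to 0.20). Osmr (ENSMUSG00000022146), the partner of gp130 for oncostatin M, lay between 11.1 and 19.8 CPM. Its log2 difference was -0.04 at 10% RPS (-0.33 to 0.25) and -0.13 at 5% RPS (-0.42 to 0.16).

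Il22ra1 (ENSMUSG00000037157), the chain that gives epithelial cells their response to IL-22, lay between 18.1 and 37.2 CPM on 0% RPS and between 30.5 and 45.3 CPM on 10% RPS. The groups overlapped, and the log2 difference was 0.22 (95% interval -0.15 to 0.59). Il10rb (ENSMUSG00000022969), the second chain of the IL-22 and IL-10 receptors, had means of 63.6 ± 4.001 CPM on 0% RPS, 62.9 ± 4.86 on 2% RPS, 63.3 ± 2.80 on 5% RPS and 63.0 ± 3.55 on 10% RPS (SD, n = 5 mice per diet). Its log2 difference at 10% RPS was -0.01, with the narrowest interval of the 10 members, from -0.15 to 0.12.

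Counted over the list, edgeR called 0 of 10 members at 10% RPS, where it called 0.0391% of all tested genes (7 of 17893), and DESeq2 called 0 of 10 members beside 1.25% of the genes it tested. At 5% RPS edgeR called 0 of 10 members and 0% of all genes, while DESeq2 called 2 of 10 members, Socs3 and Bcl3, and 0.195% of the genes it tested. The members were chosen with earlier results of these data known, so the counts describe the list and do not test it. At 2% RPS and between 10 and 5% RPS edgeR called 0 of 10 members and 0% of all genes, and DESeq2 called 0 of 10 members beside 0.00386% of the genes it tested. At an unadjusted edgeR p under 0.05 stood 3 of 10 members at 10% RPS (Socs3, Stat3 and Bcl3) beside 15.2% of all genes, and the same 3 at 5% RPS beside 9.19% of all genes. That number was 0 of 10 at 2% RPS, beside 1.41% of all genes, and 1 of 10 between 10 and 5% RPS, beside 5.82%. The 2, 5 and 10% RPS comparisons share the same 5 control mice, so the values for a gene at several levels are not independent of each other.

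**Figure D2:**
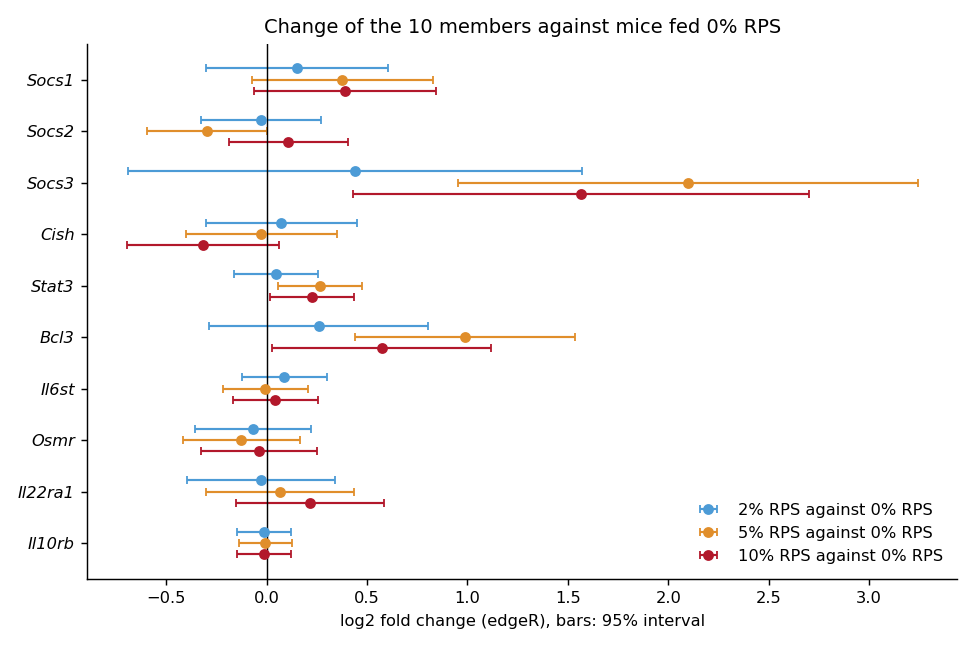
Log2 fold change of each member (horizontal axis) at 2, 5 and 10% RPS against 0% RPS, as estimated by edgeR from 5 mice per diet, with 95% intervals as bars. Socs3 has the widest intervals and the largest estimates (2.10 at 5% RPS and 1.56 at 10% RPS), and Bcl3 follows at 5% RPS (0.99). The receptor chains lie between -0.13 (Osmr at 5% RPS) and 0.22 (Il22ra1 at 10% RPS).

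A linear trend over the percentage of RPS was fitted in all 20 mice to ask whether members rose or fell steadily with dose. By edgeR 0 of 10 members had a trend with an adjusted p no higher than 0.05, where 2.1% of all tested genes did (375 of 17893). The smallest adjusted p-values were those of Socs3 (0.159, a log2 slope of 0.18 ± 0.07 (SE) per RPS percent) and Stat3 (0.165, a slope of 0.02). Cish had a slope of -0.035 per RPS percent with an unadjusted edgeR p of 0.049 and an adjusted p of 0.259. Socs3, Stat3 and Cish were the 3 of 10 members with an unadjusted p under 0.05, beside 19.1% of all genes.

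DESeq2 called the trend of 1 member, Socs3 (slope 0.18, adjusted p = 0.036), beside 5.6% of the genes it tested. That call was lost in 10 of the 20 fits that each left out 1 mouse, those without RS10_701, RS10_704, RS10_707, RS10_708, RS10_709, RS10_712, RS10_716, RS10_748, RS10_725 or RS10_784. The DESeq2 adjusted p of the trend was 0.288 with the treatment labels and 0.104 without the 3 mice of disagreeing labels. For Socs3 and Bcl3 the 10% RPS mean was below the 5% RPS mean (21.8 against 31.6 CPM and 53.4 against 71.1 CPM), and neither difference between these diets passed the edgeR test (adjusted p = 0.895 and 0.861).

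How the members moved together from mouse to mouse was described by the correlation of log2 CPM over the 20 mice for all 45 pairs of members. The closest pair was Stat3 and Bcl3 (Pearson's r = 0.82, Spearman's rho = 0.78), followed by Socs3 and Stat3 (r = 0.79, rho = 0.74) and Socs3 and Bcl3 (r = 0.67, rho = 0.64). After the mean of each diet was subtracted these were 0.74, 0.67 and 0.44. Without the 2 mice farthest from the median of the first gene they were 0.74, 0.63 and 0.63. The next pair was Cish and Il10rb (r = 0.44, rho = 0.39), and the absolute r of the other 41 was lower. The points share a library for both genes, diet and depth, so these values are descriptions of this set of mice.

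RS10_719 had the highest Socs3 (79.5 CPM) and the highest Stat3 (243 CPM), and RS10_717 had the highest Bcl3 (95.7 CPM) and the next highest Stat3 (222 CPM). RS10_721 departed from the pattern with 75.4 CPM of Bcl3 beside control levels of Socs3 (8.48 CPM) and Stat3 (168 CPM). RS10_727 departed the other way, with 209.7 CPM of Stat3 and only 9.90 CPM of Socs3.

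**Figure D3:**
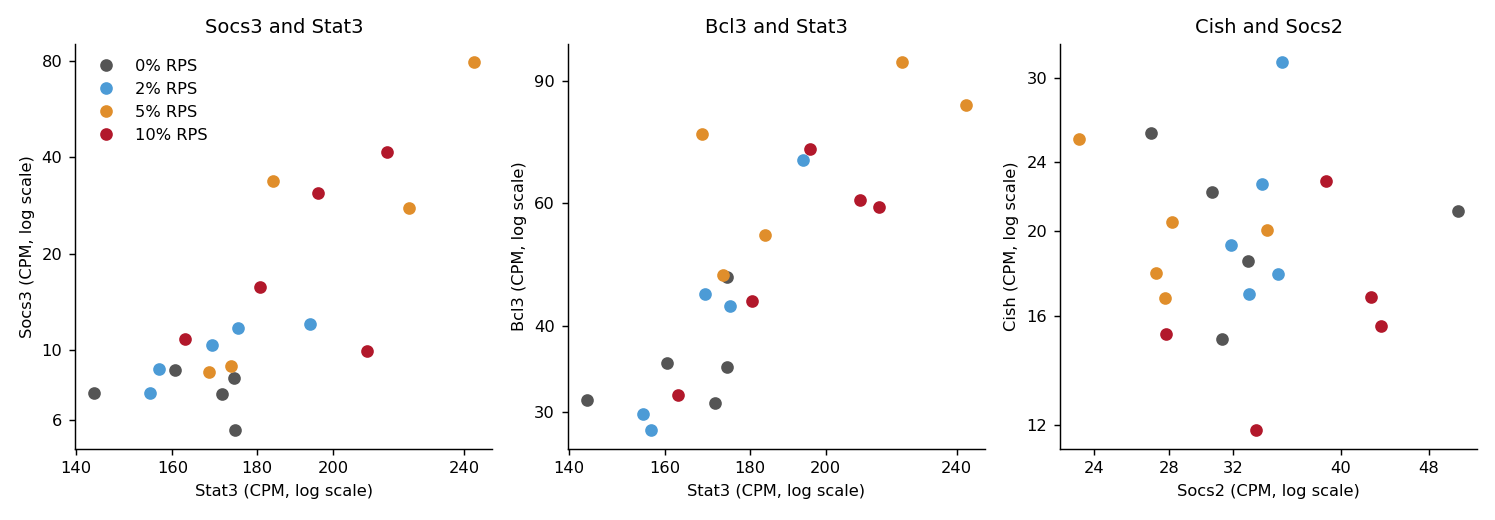
Levels of 3 pairs of members in CPM on log2 axes, 1 point per mouse and colored by diet. Socs3 and Bcl3 tend to be higher in mice with higher Stat3 (r = 0.79 and 0.82 over 20 mice), with Stat3 highest in RS10_719 at 243 CPM. There are exceptions, such as RS10_727 with 209.7 CPM of Stat3 and 9.90 CPM of Socs3. Cish and Socs2 show no common direction.

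The genes whose log2 CPM followed Socs3 most closely over the 20 mice, of those averaging 1 CPM or more, were Mfsd2a (r = 0.92), Tifa (r = 0.91), Trim40 (r = 0.87), Nos2 (r = 0.87) and Slc5a9 (r = 0.86). Mfsd2a encodes a transporter of lysophosphatidylcholine, Tifa an adaptor that binds TRAF proteins on the way to NF-kappaB, Nos2 the inducible nitric oxide synthase and Slc5a9 a sodium-coupled sugar transporter. In RS10_719 Mfsd2a stood at 17.4 CPM, Tifa at 130.3 CPM, Trim40 at 82.2 CPM, Nos2 at 22.9 CPM and Slc5a9 at 36.2 CPM, the highest value of each. After subtraction of diet means the 5 correlations lay between 0.80 and 0.87, and without RS10_719 and RS10_784 between 0.69 and 0.84. They were selected for this likeness out of all genes, so the values describe the selection.

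**Figure D4:**
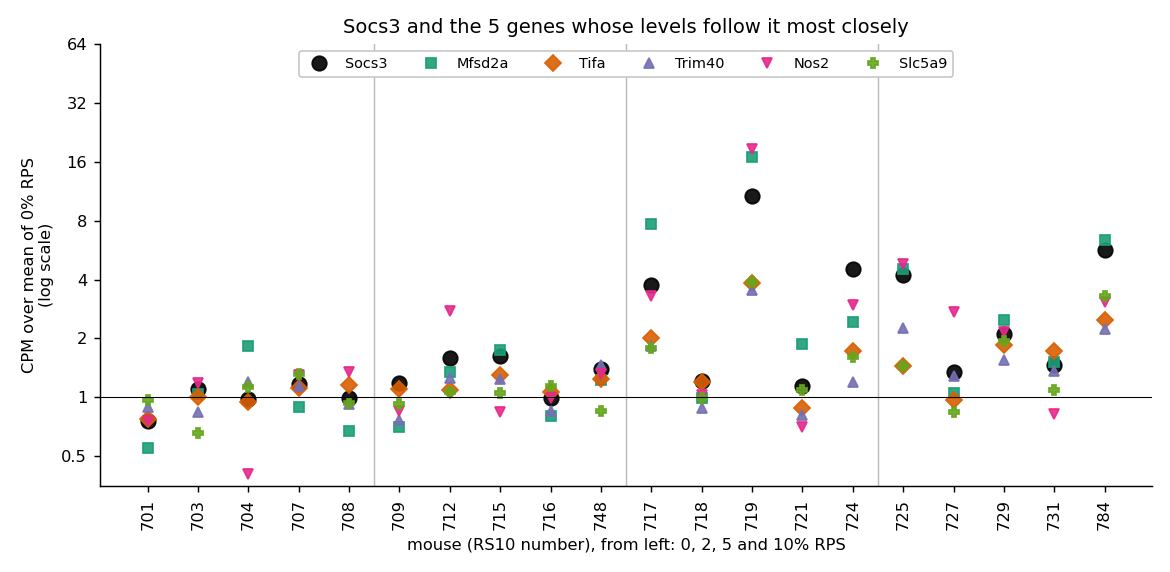
Level of Socs3 and of the 5 genes most like it in each of the 20 mice (horizontal axis, grouped by diet), divided by the mean of the 5 mice on 0% RPS (vertical axis, log2 scale). RS10_719 on 5% RPS is the highest mouse for all 6 genes, and Socs3 lies close to 1 in RS10_718 and RS10_721 on the same diet.

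For Cish the 5 closest genes were Pogz (r = 0.86), Sema7a (0.82), Flt1 (0.80), Ccdc120 (0.80) and Mdm4 (0.79). For Socs2 they were Adgre5 (r = 0.86), Antxr2 (0.80), H3f3a (0.80), Heg1 (0.80) and A130010J15Rik (0.77). No gene stood in more than 1 of the 3 sets, and edgeR called none of the 15 genes at 10% RPS or in the trend (adjusted p of 0.150 or more).

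Among the ligands of the route, 6 of 12 listed genes passed the filter on low counts: Il11, Osm, Lif, Ctf1, Clcf1 and Il10. Il6, Il22, Il19 and Il24 were at or close to the floor of these libraries, where 3 counts come to between 0.085 and 0.163 CPM, with Il6 at 0 to 0.272 CPM, Il22 at 0 to 0.045 CPM, Il19 at 0 to 0.039 CPM and Il24 at 0 to 0.062 CPM. Il27 lay between 0.030 and 0.266 CPM, and Il20 was not in the table. The most abundant ligands were Clcf1 (2.05 to 5.62 CPM), Lif (2.35 to 8.70 CPM) and Ctf1 (2.02 to 4.04 CPM). EdgeR called 0 of the 6 tested ligands at any RPS level, and the median log2 difference at 10% RPS was 0.10 beside -0.015 over all genes. Those differences ran from -0.42 to 0.97, and 2 of the 6 ligands had an unadjusted edgeR p under 0.05, beside 15.2% of all genes.

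Of the 9 other receptor chains 8 were tested, all but Il20ra (0.065 to 0.417 CPM), and edgeR called 0 of them, with 1 at an unadjusted p under 0.05 at 10% RPS, beside 15.2% of all genes. The most abundant were Ifnlr1 (20.6 to 35.3 CPM), Il11ra1 (18.9 to 35.3 CPM) and Lifr (14.9 to 33.8 CPM). The median log2 difference at 10% RPS was -0.03. Il11ra1, the IL-11 receptor, had a log2 difference of -0.29 ± 0.11 (SE) at 10% RPS with an edgeR adjusted p of 0.214.

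All 4 Janus kinase genes were tested and edgeR called none, with Jak1 at 132 to 161 CPM, Jak2 at 65.1 to 99.9 CPM and Tyk2 at 41.1 to 60.4 CPM. The other 6 STAT genes were tested and edgeR called none, with Stat6 (102 to 143 CPM), Stat2 (31.3 to 59.4 CPM) and Stat5b (23.3 to 33.5 CPM) the most abundant.

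The inhibitors beside the 4 SOCS members were 12 genes: Socs4 to Socs7, the PIAS genes and 4 phosphatase genes. All were tested, and the most abundant were Ptpn11 (104 to 139 CPM), Ptpn1 (44.2 to 62.9 CPM) and Pias2 (41.7 to 64.8 CPM). EdgeR called the trend of 1 of them (2.1% of all genes), Pias3, the protein inhibitor of activated STAT3, which fell by 0.032 on the log2 scale per RPS percent (adjusted p = 0.025). Pias3 lay between 39.0 and 43.5 CPM on 0% RPS, 35.8 and 45.7 CPM on 2% RPS, 33.3 and 40.1 CPM on 5% RPS and 28.9 and 37.9 CPM on 10% RPS. The log2 difference at 10% RPS was -0.30 ± 0.079 (SE). The edgeR call was lost with the treatment labels (adjusted p = 0.214) and without the 3 mice of disagreeing labels (0.059).

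Of 19 genes known to respond to STAT3 in the colon, 16 were tested, and edgeR called 3 of them upward and 0 downward in the trend, where 2.1% of all tested genes were called. This list, too, was chosen with earlier results of these data known, so its counts describe it and do not test a STAT3 response. The 3 called genes were Duox2 and Duoxa2, the oxidase that makes hydrogen peroxide at the epithelial surface and its maturation factor, and Reg3g, an antimicrobial lectin. Duox2 lay between 58.4 and 109.6 CPM on 0% RPS, 93.5 and 183 CPM on 5% RPS and 102 and 216 CPM on 10% RPS, with overlap (trend slope 0.09 per RPS percent, edgeR adjusted p = 0.040). Duoxa2 lay between 8.47 and 10.4 CPM on 0% RPS and between 11.1 and 35.8 CPM on 10% RPS, without overlap (trend slope 0.12, edgeR adjusted p = 0.036). All 10% RPS mice lay above all controls for 1.13% of all tested genes.

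Reg3g lay between 0.0301 and 0.283 CPM on 0% RPS and between 0.326 and 1.02 CPM on 10% RPS, so it moved near the limit of detection, with as little as 1 count in a mouse (slope 0.21, edgeR adjusted p = 0.047). The other 13 tested genes were not called, among them the most abundant, Saa1 (786 to 1764 CPM), Mcl1 (482 to 764 CPM) and Fut2 (86.0 to 222 CPM). Reg3b (0 to 1.26 CPM), S100a8 (0 to 0.235 CPM) and S100a9 (0 to 0.198 CPM) were below the filter. Not all of the 16 tested genes rose: their log2 differences at 10% RPS ran from -1.20 to 2.43, with a median of 0.15. Saa1 had means of 1407 CPM on 0% RPS and 1081 CPM on 10% RPS. Saa2, named after its values were seen, had low means of 1.12 and 0.492 CPM on these diets. The calls of Duox2, Duoxa2 and Reg3g were lost with the treatment labels (edgeR adjusted p of 0.384, 0.348 and 0.260), without the 3 mice of disagreeing labels (0.140, 0.115 and 0.085) and without the filter on low counts (0.062, 0.056 and 0.061).

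Of the 10 NF-kappaB and IkappaB genes beside Bcl3, edgeR called the trend of 1 (2.1% of all genes), Nfkbiz, another nuclear IkappaB protein, which rose by 0.07 on the log2 scale per RPS percent (adjusted p = 0.018). It lay between 29.4 and 61.3 CPM on 0% RPS, 37.3 and 54.6 CPM on 2% RPS, 50.9 and 74.1 CPM on 5% RPS and 58.2 and 82.1 CPM on 10% RPS, with overlap at each level. The call was lost with the treatment labels (edgeR adjusted p = 0.200) and without the 3 mice of disagreeing labels (0.059). Nfkb1 (80.1 to 97.0 CPM), Nfkbia (55.9 to 98.9 CPM) and Rela (61.1 to 84.1 CPM), the most abundant, were not called. Of the 5 growth hormone and STAT5 genes (Ghr, Prlr, Igf1, Igf1r and Epor) edgeR called none, with Igf1r (31.3 to 47.7 CPM), Ghr (31.9 to 47.8 CPM) and Igf1 (6.49 to 14.3 CPM) the most abundant.

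Over these 8 lists, 67 of 77 listed genes were tested, and edgeR called 0 of them at 10% RPS, where 17 had an unadjusted p under 0.05 (15.2% of all genes) and DESeq2 called 3 (1.25% of the genes it tested). In the trend edgeR called 4 upward and 1 downward, beside 2.1% of all genes, and DESeq2 called 8, beside 5.6% of those it tested. The lists were chosen with earlier results of these data known, so these counts describe the lists and do not test them. The median log2 difference at 10% RPS was 0.08 over the 67 genes and 0.16 over the 10 members, beside -0.015 over all tested genes.

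**Figure D5:**
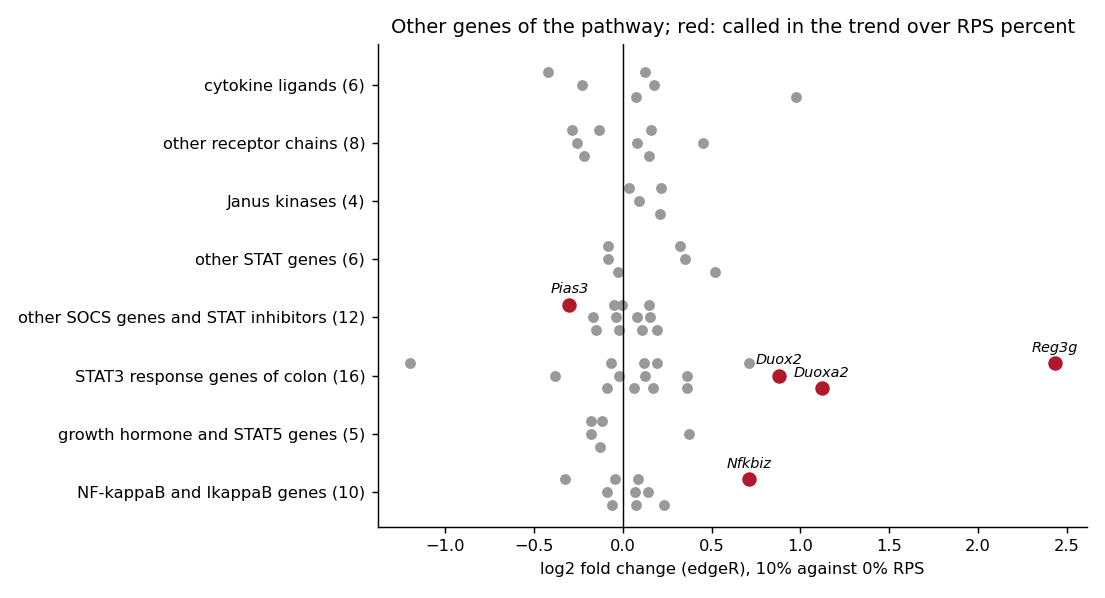
Log2 fold change at 10% against 0% RPS (horizontal axis, edgeR, 5 mice per diet) of the tested genes in 8 lists of the pathway, with the number of tested genes in parentheses. Red points were called by edgeR in the trend over RPS percent: Pias3 is the only one below 0, and Reg3g, Duoxa2, Duox2 and Nfkbiz lie above 0.

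Markers of other cell types were measured beside these genes. Epithelial markers summed to between 8956 and 12886 CPM on 0% RPS, 10959 and 13985 CPM on 5% RPS and 10787 and 14026 CPM on 10% RPS, and edgeR called the trend of 1 of the 7, Krt20, upward, beside 2.1% of all genes. The macrophage list (Adgre1, Csf1r, Cd68, C1qa, C1qb, Cx3cr1) summed to between 109.6 and 217 CPM on 0% RPS, 94.6 and 128 CPM on 5% RPS and 104 and 142 CPM on 10% RPS. At 5% RPS 5 of its 6 genes had an unadjusted edgeR p under 0.05 (9.19% of all genes). EdgeR called 0 of them there, and DESeq2 called 1, Cd68 (adjusted p = 0.019, a log2 difference of -0.73), beside 0.195% of the genes it tested. At 10% RPS 4 of the 6 had an unadjusted edgeR p under 0.05 (15.2% of all genes), with log2 differences from -0.60 to -0.25. There edgeR called 0 of the macrophage genes and DESeq2 called 1, beside 1.25% of the genes it tested. Plasma cell markers (Jchain, Tnfrsf17, Derl3, Mzb1) summed to between 69.9 and 633 CPM on 0% RPS (median 112.5) and between 309 and 735 CPM on 10% RPS (median 448), with overlap and a median log2 difference of 1.16. In the trend all 4 had an unadjusted edgeR p under 0.05 (19.1% of all genes), and edgeR called 1 of them, Tnfrsf17, upward (2.1% of all genes). At 10% RPS DESeq2 called 1 of the 4 plasma cell markers and 2 of the 7 epithelial markers, beside 1.25% of the genes it tested. Adipocyte markers varied most between the mice on 5% RPS, from 0.804 to 66.6 CPM, the highest in RS10_721 and next in RS10_718 (49.0 CPM), beside 8.84 to 20.8 CPM on 0% RPS, and edgeR and DESeq2 called 0 of the 4 (a median log2 difference of 0.98 at 5% RPS). Of the neutrophil list, Ly6g lay between 130.2 and 410.4 CPM, highest in RS10_719, while the 6 other markers (Csf3r, Cxcr2, Retnlg, Mpo, S100a8, S100a9) together summed to at most 2.66 CPM in every library. The part of the epithelial, macrophage, plasma cell, adipocyte and Ly6g values in the values of Socs3, Stat3 and Bcl3 was not tested. Immediate early genes, which rise during tissue handling and in stimulated cells, summed highest in RS10_715 (1304 CPM), the mouse with the highest Cish (31.2 CPM) and the highest Bcl3 of the 2% RPS group (69.3 CPM), and their part in these levels was not tested either.

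Of the 10 members 9 overlap another annotated gene, Il22ra1 being the exception, and whether the counting used the strand is not stated. The overlaps are with noncoding RNAs on the opposite strand, except that Stat3 overlaps Stat5a on the opposite strand and Il10rb overlaps the gene model Gm21970 on its own strand. Counts of these genes are uncertain to the extent that reads from the shared stretches were split or dropped.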

How the data were processed

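Total RNA was extracted from a piece of distal colon of each mouse, and stranded poly(A) libraries were sequenced from one end. Before mapping, the authors trimmed bases of low quality. They aligned the reads to GRCm39 in CLC Genomics Workbench, and deposited raw counts per gene, with no normalization and no pooling of mice. The annotation release, the use of strand and the handling of multi-mapping reads are not given in the sources used here. How these were set could move the counts of overlapping genes.

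The analysis used R 4.3.3. Low genes were dropped by filterByExpr in edgeR 4.0.16 (minimum count 10), and libraries were scaled by TMM. The quasi-likelihood test of the diet comparisons was run in 1 fit over the 4 diets. The trend was tested in a separate fit on RPS percent, with its own estimate of the spread. Benjamini-Hochberg adjustment was over 17893 genes. Calls needed an adjusted p no higher than 0.05 and a 1.5-fold change (no fold threshold for the trend). Intervals are 95% intervals from the fit over the 4 diets. DESeq2 1.42.0 was the alternative test, with its default filters. CPM used TMM-scaled totals, and correlations used log2 CPM with a prior count of 2. Nothing pairs mice across diets, and the p-values measure the spread between mice. Library totals are in the report, and counting error adds to that spread, for low genes such as Socs1 and Reg3g too.

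Members and gene lists were chosen with earlier results of these data known. All members are named, with, from each list, the called genes, the 3 most abundant and those below the filter, and the 5 genes most like Socs3, Cish and Socs2. The alternatives were DESeq2, RLE scaling, no filter, the treatment labels, omission of the 3 mice of disagreeing labels and omission of each mouse. The scripts were tested on simulated data. DESeq2 with mice left out and the canonical transcript length were added after the data were seen.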

Additional observations from a re-analysis of the deposited data

Results flagged for a closer look

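In the 0% RPS group, mouse RS10_703 stood apart for 2 members. Its Socs2 level was 51.1 CPM, and the next highest control mouse had 33.0 CPM. Its Bcl3 level was 47.0 CPM, beside 35.3 CPM in the next mouse. Each gap exceeded the critical value of Dixon's test for 5 samples. The 10 members in 4 diets made 40 such tests, of which chance alone would flag about 2, and 2 were flagged.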

How the results depend on the processing

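EdgeR called 0 of 10 members in every comparison under RLE scaling, without the filter on low counts, with the treatment labels, without the 3 mice of disagreeing labels and in each of the 20 fits that left out 1 mouse. DESeq2 called 2 members at 5% RPS and 1 in the trend. Over all genes, edgeR called 7 at 10% RPS, DESeq2 211, edgeR with RLE scaling 13, with the treatment labels 0, without the 3 mice 0, and with 1 mouse left out between 5 (without RS10_784) and 188 (without RS10_727, the smallest library). In the trend the counts were 375 by edgeR, 973 by DESeq2, 0 with the treatment labels, 56 without the 3 mice and between 24 and 1148 with the same mice left out. DESeq2 called 29 genes at 5% RPS, 1 at 2% RPS and 1 between 10 and 5% RPS, where edgeR called 0. With 1 mouse left out edgeR called 0 or 1 at 5% RPS. The cause of these differences was not tested.

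Estimates near 0 changed sign. With the treatment labels Cish at 5% RPS was 0.042, Il6st was -0.020 at 10% and 0.024 at 5% RPS, and Il10rb at 5% RPS was 0.026 (log2). Without the 3 mice Cish was 0.017 and Il10rb 0.015 at 5% RPS, and Il22ra1 was 0.046 at 2% RPS. The slope of Il6st was -0.000248 without the filter, -0.00651 with the treatment labels and -0.00325 without the 3 mice. That of Il10rb was 0.000348 by DESeq2, 0.000255 with RLE scaling and 0.00132 with the treatment labels.

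Leaving out 1 mouse reversed 52 of 900 estimates. Those affected ran at 10% RPS from -0.048 to 0.016 (Il10rb), -0.024 to 0.115 (Il6st) and -0.170 to 0.046 (Osmr). At 5% RPS they ran from -0.130 to 0.070 (Cish), -0.049 to 0.015 (Il10rb), -0.084 to 0.146 (Il22ra1) and -0.061 to 0.037 (Il6st). At 2% RPS they ran from -0.098 to 0.170 (Cish), -0.053 to 0.025 (Il10rb), -0.174 to 0.044 (Il22ra1), -0.156 to 0.011 (Osmr), -0.108 to 0.155 (Socs2) and -0.0067 to 0.074 (Stat3). Slopes ran from -0.0034 to 0.0017 (Il10rb), -0.0060 to 0.0075 (Il6st), -0.0165 to 0.0039 (Osmr) and -1.88e-05 to 0.023 (Socs2). None of Socs3 (1.19 to 1.75 at 10% RPS, 1.41 to 2.34 at 5% RPS), Bcl3 or Socs1 reversed. The trend calls of Reg3g, Duox2, Duoxa2, Pias3 and Nfkbiz were lost in 13, 9, 7, 4 and 1 of 20 such fits. Counts were low for Socs1 (24 to 52 per library) and Reg3g (1 to 26), which limits their precision.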
